A study of Mus musculus with 10 samples.

Results

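The regions described here are stretches of open chromatin that were called at day 6 and in no embryonic library. The assay was ATAC-seq, which uses a transposase to cut accessible DNA and tag it for sequencing, on sorted thymic epithelial cells (TEC). All 10 libraries came from wild-type C57BL/6 mice, with 2 libraries in each of 5 groups. The embryonic groups are E15 and E17 (embryonic days 15 and 17), and the day 6 groups are 3 fractions, mTEC4, mTEC1 and mTEC2. The labels leave these fraction names unexplained, give no fraction for the embryonic libraries, and do not say whether the 2 libraries of a group came from separate animals. The peaks themselves carry other tags in their names, aTEC in the mTEC4 lists, eTEC in the mTEC1 lists, Hi in the mTEC2 lists and hi in the embryonic lists, and libraries are called here by their titles. Age and sorted fraction cannot be told apart in any comparison of day 6 with embryonic lists. All 882163 peaks of the 10 lists were merged where they overlapped or touched, which gave 351411 regions. Members were selected on the calls themselves: a peak in at least 5 of the 6 day 6 lists and in none of the 4 embryonic lists. There were 1003 of them, 6.34% of the 15823 regions called in at least 5 day 6 lists. Since the calls chose the members, their number and strength are given as a description with no test.

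Medullary TEC (mTEC) display tissue antigens to developing T cells and so remove self-reactive clones, and the fractions of these cells change as the thymus matures around birth. Open chromatin marks promoters and enhancers, where transcription factors bind and nucleosomes are displaced. A sorted TEC preparation can also hold thymocytes and other blood cells that adhere to the epithelium, and in a bulk library more cells of a type and more open chromatin per cell cannot be told apart. Peaks can further arise where reads pile up over repeated sequence or where the background is uneven. The promoters, the strongest regions and the widest regions are therefore described in turn.

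The libraries did not contribute evenly, and mTEC2 replicate 2 stood apart. Peak lists held 86237 to 151646 peaks in the embryonic libraries and 40858 (mTEC2 replicate 2) to 101917 at day 6, and the read depth behind them is unknown. Of the 1003 members, mTEC2 replicate 2 called 562 (56%), mTEC1 replicate 1 called 974 (97.1%) and the other 4 day 6 libraries 885 to 928. Among the 848 members called in exactly 5 lists, mTEC2 replicate 2 was the missing list in 441. Without that library, asking for 4 of the remaining 5 lists, 3223 regions met the rule. Both libraries of a fraction called 794 members in mTEC4, 880 in mTEC1 and 487 in mTEC2.

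The members that overlapped promoters are shown first, since a called region there lies at the promoter of a gene. Such a region can also lie at another gene. That of E130215H24Rik was also at the boundary of Acss1, and that of Gm10390 lay inside Rbm19. RefSeq promoter windows (GRCm38.p6, which is mm10) run from 250 bp before to 50 bp after a transcription start. Members overlapped 16 windows in 14 regions. A single window per region is described here, and 9 of these 14 regions held the start of that window itself. The 9 windows below are those of 8 genes known for expression in lymphocytes or other blood cells, a choice made after the values were seen and not a tested theme, plus Gm40491, a predicted gene whose window was overlapped by a region called in all 6 day 6 lists. Traf3ip3, Arhgap30, Dennd1c and Sla2 were named by the rule for regions at gene boundaries, Themis as a listed T cell gene, and Il16, Arhgap45, Ccdc88b and Gm40491 after their values were seen. Sequences run 5′ to 3′ on the strand of the gene, with the part inside the called region in capitals.
Traf3ip3 (chr1:193201497-193201796, minus strand): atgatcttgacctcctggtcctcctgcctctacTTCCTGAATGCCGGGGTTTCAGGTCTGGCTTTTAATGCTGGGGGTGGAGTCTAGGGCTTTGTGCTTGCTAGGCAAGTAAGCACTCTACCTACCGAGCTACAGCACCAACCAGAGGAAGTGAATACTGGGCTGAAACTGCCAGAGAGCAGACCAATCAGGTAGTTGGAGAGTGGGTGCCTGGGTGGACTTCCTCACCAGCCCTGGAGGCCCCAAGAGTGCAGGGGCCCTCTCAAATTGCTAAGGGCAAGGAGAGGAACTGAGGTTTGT
Arhgap30 (chr1:171388710-171389009, plus strand): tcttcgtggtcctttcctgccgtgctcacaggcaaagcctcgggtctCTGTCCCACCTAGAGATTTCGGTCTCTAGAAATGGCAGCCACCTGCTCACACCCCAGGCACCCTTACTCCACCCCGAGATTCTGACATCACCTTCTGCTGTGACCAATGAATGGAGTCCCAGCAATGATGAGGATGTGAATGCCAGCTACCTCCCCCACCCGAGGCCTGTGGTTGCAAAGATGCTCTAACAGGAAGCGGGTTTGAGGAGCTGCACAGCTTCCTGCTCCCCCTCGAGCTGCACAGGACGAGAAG
Dennd1c (chr17:57078449-57078748, minus strand): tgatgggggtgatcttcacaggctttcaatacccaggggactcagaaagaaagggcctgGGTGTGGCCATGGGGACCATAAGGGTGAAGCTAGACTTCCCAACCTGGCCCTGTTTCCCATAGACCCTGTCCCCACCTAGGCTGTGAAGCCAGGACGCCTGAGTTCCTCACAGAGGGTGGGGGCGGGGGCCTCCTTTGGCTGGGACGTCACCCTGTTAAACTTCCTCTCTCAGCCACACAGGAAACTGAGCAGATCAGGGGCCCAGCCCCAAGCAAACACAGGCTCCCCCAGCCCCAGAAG
Sla2 (chr2:156887172-156887471, minus strand): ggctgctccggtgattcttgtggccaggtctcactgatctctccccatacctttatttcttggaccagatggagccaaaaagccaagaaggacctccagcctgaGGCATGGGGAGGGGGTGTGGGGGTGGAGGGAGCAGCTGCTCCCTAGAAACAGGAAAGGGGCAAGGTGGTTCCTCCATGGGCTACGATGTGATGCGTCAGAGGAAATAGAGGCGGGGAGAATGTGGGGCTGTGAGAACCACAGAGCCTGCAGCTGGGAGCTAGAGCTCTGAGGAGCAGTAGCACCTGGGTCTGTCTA
Il16 (chr7:83655446-83655745, minus strand): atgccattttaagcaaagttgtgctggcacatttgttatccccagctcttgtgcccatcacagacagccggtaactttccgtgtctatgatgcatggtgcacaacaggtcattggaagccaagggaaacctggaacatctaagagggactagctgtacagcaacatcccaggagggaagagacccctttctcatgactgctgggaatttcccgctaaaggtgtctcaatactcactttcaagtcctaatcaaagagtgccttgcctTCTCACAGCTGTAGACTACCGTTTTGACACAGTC
Arhgap45 (chr10:80016422-80016721, plus strand): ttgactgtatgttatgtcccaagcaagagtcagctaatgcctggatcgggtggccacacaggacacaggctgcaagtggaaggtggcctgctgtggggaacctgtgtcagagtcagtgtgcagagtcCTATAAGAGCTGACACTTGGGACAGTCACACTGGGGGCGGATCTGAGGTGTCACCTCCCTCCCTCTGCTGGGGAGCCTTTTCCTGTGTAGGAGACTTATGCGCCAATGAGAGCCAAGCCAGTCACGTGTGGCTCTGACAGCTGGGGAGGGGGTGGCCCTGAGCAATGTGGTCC
Ccdc88b (chr19:6858162-6858461, minus strand): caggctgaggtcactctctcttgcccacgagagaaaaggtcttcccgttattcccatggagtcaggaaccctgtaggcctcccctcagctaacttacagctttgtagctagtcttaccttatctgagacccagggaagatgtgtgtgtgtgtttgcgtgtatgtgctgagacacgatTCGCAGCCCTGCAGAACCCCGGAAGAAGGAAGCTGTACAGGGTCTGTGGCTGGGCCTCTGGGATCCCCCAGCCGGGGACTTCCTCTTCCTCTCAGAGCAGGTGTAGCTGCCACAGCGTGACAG
Themis (chr10:28668145-28668444, plus strand): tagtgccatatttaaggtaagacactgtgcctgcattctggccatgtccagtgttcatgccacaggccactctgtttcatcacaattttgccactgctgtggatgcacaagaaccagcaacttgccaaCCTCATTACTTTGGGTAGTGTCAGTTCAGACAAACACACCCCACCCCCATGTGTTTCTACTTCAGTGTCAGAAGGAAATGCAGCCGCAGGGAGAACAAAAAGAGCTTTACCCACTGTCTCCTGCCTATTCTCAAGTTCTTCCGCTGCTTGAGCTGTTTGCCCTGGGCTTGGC
Gm40491 (chr12:86833714-86834013, minus strand): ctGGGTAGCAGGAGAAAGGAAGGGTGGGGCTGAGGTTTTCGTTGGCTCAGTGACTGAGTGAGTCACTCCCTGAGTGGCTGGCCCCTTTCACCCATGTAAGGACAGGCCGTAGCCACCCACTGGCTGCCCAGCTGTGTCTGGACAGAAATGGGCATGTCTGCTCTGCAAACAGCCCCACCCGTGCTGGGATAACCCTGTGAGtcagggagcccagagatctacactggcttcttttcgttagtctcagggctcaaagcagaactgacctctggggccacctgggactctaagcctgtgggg

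Traf3ip3 codes for an adaptor protein of lymphocytes. Its region, chr1:193201091-193201763, was called in 5 lists with a −log10 q of 2.17 and 1.96 in the mTEC4 libraries, 2.46 and 2.18 in the mTEC1 libraries, and 1.97 in mTEC2 replicate 1. No peak was called in mTEC2 replicate 2. These q values are those of the authors' peak caller for the strongest peak of each library in the region, and no list holds a value below 1.0002. Arhgap30 is expressed mainly in blood cells. Its region reached a −log10 q of 4.7 in mTEC4 replicate 2, 1.59 and 2.13 in the mTEC1 libraries, and 4.71 and 1.42 in the mTEC2 libraries, with no peak in mTEC4 replicate 1. Dennd1c, which codes for an exchange factor for Rab GTPases, had no peak in mTEC4 replicate 1 either, and 1.47, 3.1, 2.11, 3.34 and 1.82 in the other 5. Both genes were thus missed in the same library, and their values in the others ran from 1.42 to 4.71.

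Sla2 codes for an adaptor that dampens signalling from the T cell receptor. Its values were 1.26 and 2.05 in mTEC4, 1.91 and 1.95 in mTEC1 and 2.53 in mTEC2 replicate 1. Il16 codes for the precursor of a cytokine that attracts CD4+ cells, and its region overlapped the window by only 34 bp, without the start. It was uncalled in mTEC4 replicate 1 and had 1.18, 2.07, 6.51, 5.59 and 2.25 in the other libraries. Arhgap45, the gene of a minor histocompatibility antigen, had 1.26 in mTEC4 replicate 1, 3.76 and 1.73 in mTEC1, and 4.62 and 1.62 in mTEC2. Ccdc88b, a gene expressed in immune cells, had 1.41 and 2.49 in mTEC4, 1.58 in mTEC1 replicate 2, and 7.34 and 2.01 in mTEC2. Themis, required for the selection of thymocytes, had the weakest region of these, with 1.18 in mTEC4 replicate 2, 1.65 and 1.3 in mTEC1, and 1.16 and 1.21 in mTEC2. Since q values belong to their own list, each peak was also ranked by its −log10 q within that list. By this percentile the highest peak came from mTEC2 replicate 1 at Ccdc88b (91.9), Sla2 (66.5) and Themis (28.5), and from mTEC1 replicate 1 at Arhgap45 (85.1) and Dennd1c (78.4). It came from mTEC1 replicate 2 at Il16 (92.8), from mTEC4 replicate 2 at Arhgap30 (86.6) and from mTEC4 replicate 1 at Traf3ip3 (69). No library was highest at all 8 genes, but mTEC2 replicate 1 was highest at more of them than any other. By −log10 q itself it was highest at Arhgap30, Dennd1c, Sla2, Arhgap45 and Ccdc88b, and an mTEC1 library at Traf3ip3, Il16 and Themis. Only mTEC2 replicate 1 and mTEC1 replicate 2 called all 8, while mTEC4 replicate 1 missed Arhgap30, Dennd1c, Il16 and Themis. None of the 8 genes kept its region when only peaks at −log10 q 2 or above were counted, with every list cut by strength to the length of the shortest, or in all 6 lists.

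The predicted gene Gm40491 had a region in every day 6 list, with a −log10 q of 3.08 and 6.22 in mTEC4, 2.78 and 2.92 in mTEC1, and 4.08 and 1.64 in mTEC2. Gm39792 was the other promoter window with a region in all 6 lists. The remaining described windows belonged to AI467606, E130215H24Rik, Gm10390 and 4930417O13Rik. The regions at Gm40491, Gm39792, AI467606 and E130215H24Rik lay upstream of the start and did not include it.

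**Figure D1:**
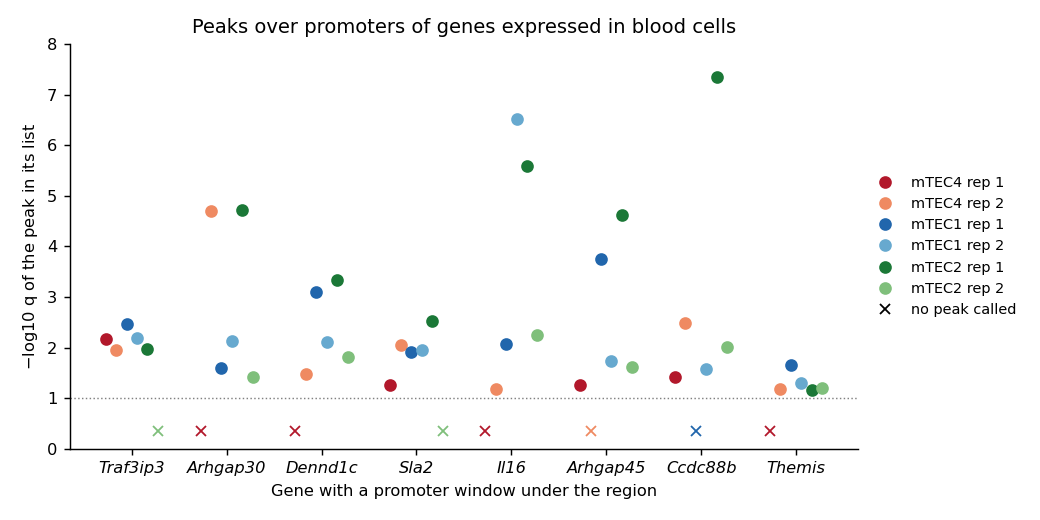
Strength of the strongest peak of each day 6 library (−log10 q of the authors' caller, vertical axis) in the regions over the promoter windows of 8 genes, with a point per library, a cross where no peak was called and a dotted line at 1. Themis lies lowest, with values from 1.16 to 1.65, and Ccdc88b reaches 7.34 in mTEC2 replicate 1.

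None of the 14 regions had an embryonic call by the rule, and the distance to the nearest embryonic region differed between them. An embryonic region is any merged region with a peak in at least 1 embryonic list. It was 13930 bp at Themis and 13202 bp at Sla2, 6580 bp at Dennd1c, 3675 bp at Il16 and 2992 bp at Traf3ip3. At Arhgap45, Arhgap30 and Ccdc88b it was 1429, 1285 and 1246 bp, so embryonic lists had peaks a short way from these promoters. The 14 windows had a median GC content of 56.5% and a median of 4.5 CpG dinucleotides (range 2 to 9), against 52.7% and 7 over all 32851 windows. Of 6 short motifs searched as exact letters on either strand, the E-box CAGCTG was in 7 of 14 windows (50% against 16.3% of all windows), the ETS core GGAAGT in 6 (42.9% against 23.8%) and the RUNX motif TGTGGT in 5 (35.7% against 16.8%). The TCF and LEF motif CTTTGA was in 3 (21.4% against 16%), the GATA motif AGATAA in 2 (14.3% against 11.2%), and the TATA box TATAAA in 0 (13.6% of all windows). None of the 6 strings contains another. Traf3ip3, Dennd1c and Ccdc88b held the ETS core, Arhgap30, Sla2 and Arhgap45 the RUNX motif, and Themis none of the 6. A match is a string of letters in the window and was not compared with binding.

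Promoters were uncommon among the members as a whole. Of the 1003, 14 (1.4%) overlapped a promoter window, against 51.3% of the 14820 regions called in at least 5 day 6 lists and in at least 1 embryonic list, called shared regions from here on. At a gene boundary, defined as within 1 kb of either end of a protein-coding gene, lay 22 members (2.19%) against 57.1% of shared regions. With every list cut by strength to the length of the shortest, 599 regions met the rule and 13.4% of them lay at a boundary. Read the other way, only 0.259% of the 8483 day 6 regions at gene boundaries had no embryonic call. Inside a gene span lay 328 members (32.7% against 20.5% of shared regions), which is 9.73% of the 3372 day 6 regions there. Elsewhere lay 652 (65% against 21.9%), 16.7% of the 3903 day 6 regions there, and 1 lay on a chromosome 1 contig of unknown position. Regions called in all 4 embryonic and no day 6 list had 7.73% at gene boundaries and 49.1% inside gene spans, so the small share at boundaries was also seen in that set, to a lesser degree. Regions called in exactly 4 day 6 lists and no embryonic list had 0.902% over promoter windows, 1.94% at boundaries and 30.2% inside gene spans. Regions called in at least 5 day 6 lists and exactly 1 embryonic list had 0.317% over promoter windows. The small share at promoters was thus not particular to the members.

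The 22 boundary members were about as strong as the other members. The percentile of a region is the median over its peaks in the lists that called it, and it had a median of 52.3 at boundaries and 46.7 over all members, with a median −log10 q of 1.97 and 1.82. The highest percentile at a boundary was 70.7, in the region by Acss1, which also overlaps the window of E130215H24Rik. By the naming rule the others were at Scube1, AI467606, 2810021J22Rik, Patz1, Traf3ip3, Arhgap30, Dennd1c, Gp9, Sla2, Trim21, Hsdl1, Nmi, Vamp1 and Tmem211. Gp9 is a platelet glycoprotein, Patz1 a zinc finger repressor, Trim21 an intracellular antibody receptor and Vamp1 a vesicle membrane protein. The further 7 were at Arhgap45, Olfr1458, Ccdc88b, Pdcd4, Themis, Anxa3 and Serpinb1c, given here so that all 22 are accounted for.

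**Figure D2:**
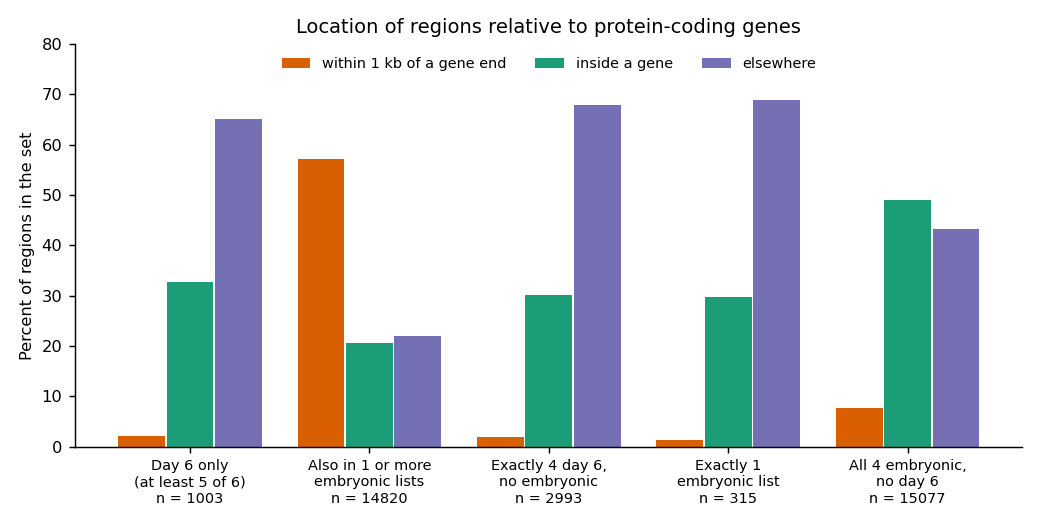
Share of regions (percent, vertical axis) at gene boundaries, inside gene spans and elsewhere, with a bar for each, in the 1003 day 6 regions absent from embryonic lists and in 4 other sets defined by their calls. Elsewhere holds 65% of the members and 21.9% of shared regions.

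Members far from genes were frequent. Of the 1003, 298 (29.7%) lay over 100 kb from any protein-coding gene and 87 (8.67%) over 500 kb, against 3.88% and 0.796% of shared regions. Among regions away from genes the median distance was 83650 bp for members and 20221 bp for shared regions. Regions called in exactly 4 day 6 lists and no embryonic list lay further still. Of these, 34.1% were over 100 kb and 11.4% over 500 kb from a gene, and their median distance was 100619 bp. Distance from genes was thus not particular to the members. The 704 members with a gene within 100 kb pointed to 673 genes, of which 643 had 1 member, 29 had 2 and Adarb2, an RNA-editing enzyme homologue of brain, had 3. Predicted gene models were the nearest gene of 45 (6.39% against 4.48% of shared regions) and multigene families of 46 (6.53% against 3.91%). Pseudogenes were overlapped by 17 (1.69% against 1.27%) and long noncoding RNA genes by 81 (8.08% against 13.9%).

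Lists of cell type genes were then read for genes that were the nearest gene of a member within 100 kb. In the list of TEC and mTEC genes this held for 1 of 35 (2.86%), Gp2, a marker of microfold cells, while 21 of the 35 were the nearest gene of a shared region. Over all 21896 protein-coding genes it held for 673 (3.07%), and for 10820 with shared regions. In the list of T cell and thymocyte genes the number was 4 of 24 (16.7%), Tcf7, Ets1, Themis and Il7r, and in the list of dendritic cells and macrophages 2 of 14 (14.3%), Itgam and Itgax, with 9 and 4 for shared regions. It held for no gene of the lists for B cells (6), erythroid cells (7), mesenchyme (8) or endothelium (5). Tcf7, a transcription factor of T cell commitment, held a region in all 6 lists inside its span, with a −log10 q of 2.04 and 1.06 in mTEC4, 1.56 and 3.66 in mTEC1 and 3.61 and 2.46 in mTEC2. Ets1, a factor abundant in lymphocytes, was called in 5 with 2.43, 1.89, 2.75, 2.05 and 2.01 and not in mTEC4 replicate 1.

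The other listed genes had their members outside the gene. Il7r, the interleukin 7 receptor, had one 3956 bp away, at 1.93, 2.14, 1.64, 1.24 and 1.01 in 5 lists, with at most 3 lists over the same base. Itgam and Itgax, integrin chains of myeloid cells, had theirs at 3662 and 4150 bp, with the highest values at 2.64 and 2.12. Gp2 had a member 25643 bp away, and an embryonic region lay 14 bp from that member. From the members of Itgax, Ets1, Tcf7, Itgam and Il7r the nearest embryonic region lay 374, 1246, 6591, 7045 and 18098 bp away.

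Markers fixed for the sorted cells and for other cells were counted by whether a library had a called region at the boundary of the gene. Thymic epithelial markers were called in 12 to 14 of 14 genes in embryonic libraries and 5 to 9 of 14 at day 6, with Pou2f3, Foxn1, Pax9 and Trp63 at 0 in the day 6 lists only. Thymocyte and T cell markers were called in 3 to 5 of 14 genes in embryonic libraries and in 1 and 6 in mTEC4, 6 and 7 in mTEC1 and 11 and 5 in mTEC2. Ptprc, the common leukocyte antigen CD45, and Rag2 were at 0 in all 10 libraries. Mesenchyme markers were called in 5 of 5 genes in embryonic libraries and 0 to 2 at day 6. Of these, Pdgfra, Col1a2 and Twist1 were at 0 in the day 6 lists only. Endothelial markers were called in 2 to 3 and 0 to 2 of 4, with Pecam1 at 0 throughout. Macrophage and dendritic cell markers were called in 3 to 4 of 8 and 2 to 4 of 8, with Itgax, Cd68, Adgre1 and Csf1r at 0 in all libraries. B cell markers were called in 2 to 4 of 5 and 1 to 3 of 5, with Pax5 at 0 in the day 6 lists only. Erythroid markers were called in 1 to 2 of 5 in both. Hbb-bs and Alas2 were at 0 in all libraries, and Gata1 in the day 6 lists only. The share of all gene boundaries called in each library is not given here, so these counts are not corrected for list length. Among day 6 libraries mTEC2 replicate 1, the longest list with 101917 peaks, had the most called markers of thymocytes (11), thymic epithelium (9), mesenchyme (2) and endothelium (2). The part of other cells in the regions at the 8 promoters was not tested.

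Strength in general was near the limit of the caller. The median −log10 q of a member was 1.82 and that of a shared region 4.05, and the median percentile 46.7 and 84.5. Members below the 50th percentile numbered 562 (56% against 5.53% of shared regions). A peak at −log10 q of at least 5 in some list was held by 149 (14.9% against 76.3%) and one of at least 10 by 33 (3.29% against 32.8%). In mTEC2 replicate 1, 210 of 928 member peaks (22.6%) shared the value 1.09, the most common among them, against 24.4% of the whole list. In mTEC1 replicate 2, 191 of 909 (21%) shared 1.3, against 22.5% of the whole list. The tied value was thus no more frequent among members than in either list. These member peaks are the strongest of each member in a list. Of them, 35.9% (mTEC1 replicate 1) to 66.8% (mTEC4 replicate 2) were below 2, against 44.3% to 63.7% of all peaks in the 6 lists. The member share was below that of the list in mTEC1 replicate 1 (35.9% against 47.7%) and mTEC4 replicate 1 (61.9% against 63.7%). It was above that of the list in the other libraries. Across members, the Spearman correlation of percentiles was 0.258 to 0.316 between libraries of the same fraction (3 pairs) and 0.131 to 0.446 between fractions (12 pairs), a description over regions that share a list, its depth and the caller. The 2 ranges overlap.

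**Figure D3:**
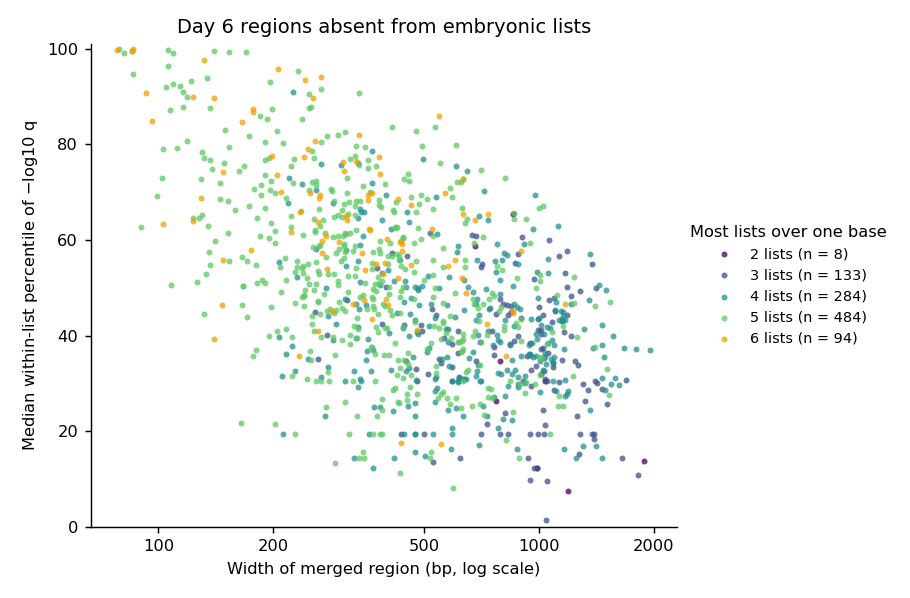
Width of each of the 1003 members in bp (horizontal log axis) against its median within-list percentile of −log10 q (vertical axis), coloured by the most lists that cover 1 base. Members at or above the 90th percentile have a median width of 122 bp and those below the 50th 628 bp, and the 141 with at most 3 lists over a base lie mostly among the wide and weak.

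A small number of members were very strong and very narrow. At or above the 90th percentile were 31 (3.09% against 33.9% of shared regions), with a median width of 122 bp, a median peak width of 92 bp and a median −log10 q of 7.31. At or above the 99th percentile were 11 (1.1% against 2.89%). The smallest peak that a list could hold was 64 to 74 bp, depending on the list, so several of these regions were barely wider than the caller's minimum. The first by percentile was chr5:106176781-106176859, 79 bp wide and 260963 bp from Zfp326. Its −log10 q was 70.9 and 58.7 in mTEC4, 98 in mTEC1 replicate 1, and 66 and 76.9 in mTEC2, with no peak in mTEC1 replicate 2, and its fold enrichment over the caller's background ran from 25.7 to 35. An embryonic region lay 401 bp away.

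The second by percentile, 86 bp inside Ppp2r2b, a brain subunit of a protein phosphatase, was called in all 6 lists at 73.1 and 49.2 in mTEC4, 102 and 40.3 in mTEC1 and 77.6 and 79.9 in mTEC2. Its median −log10 q (75.4) and median fold (32.1) were above those of the region near Zfp326 (70.9 and 29.7). The region 1481 bp from Tmcc3, 106 bp wide, had 58.3 and 53.2, 102, and 43.9 and 81.6, again with no peak in mTEC1 replicate 2. Gm35315 held a 78 bp region, the narrowest of the 1003, in all 6 lists with 32.2, 29.2, 65.1, 15, 33.7 and 38.5 in the order mTEC4, mTEC1, mTEC2. The narrow region 58062 bp from Cdh12, a neuronal cadherin, had 24, 23.1, 42.5, 25.7 and 29.4 and none in mTEC1 replicate 2. Of these 5 regions, those near Zfp326, Tmcc3 and Cdh12 had no peak in mTEC1 replicate 2, and the other 2 were called in every list.

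The remaining 5 of the 10 strongest were near or in Epha3, Cntnap5b, Slc14a2, 1700008P02Rik and Dtna, none at a gene boundary. The Epha3 region, 85 bp, was called in all 6 lists, from 18.3 to 42.9. At Dtna the values ran from 1.09 in mTEC2 replicate 1 to 27.6 in mTEC1 replicate 1. In most of these 10 regions the peak edges were nearly the same in all calling lists. Over the 10, the start moved by a median of 5 bp (range 1 to 60 bp) and the end by 8.5 bp (0 to 70 bp). Over all members these medians were 232 and 207 bp. Edges can move only as far as the width of a region allows, so small moves are no observation separate from narrow width. The largest moves were at the start by Cntnap5b (140 bp wide) and at the end by 1700008P02Rik (153 bp wide). By fold, 28 members (2.79% against 11% of shared regions) had a peak in the top 1% of some list, and 8 (0.798% against 1.36%) had one in every list that called them.

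**Figure D4:**
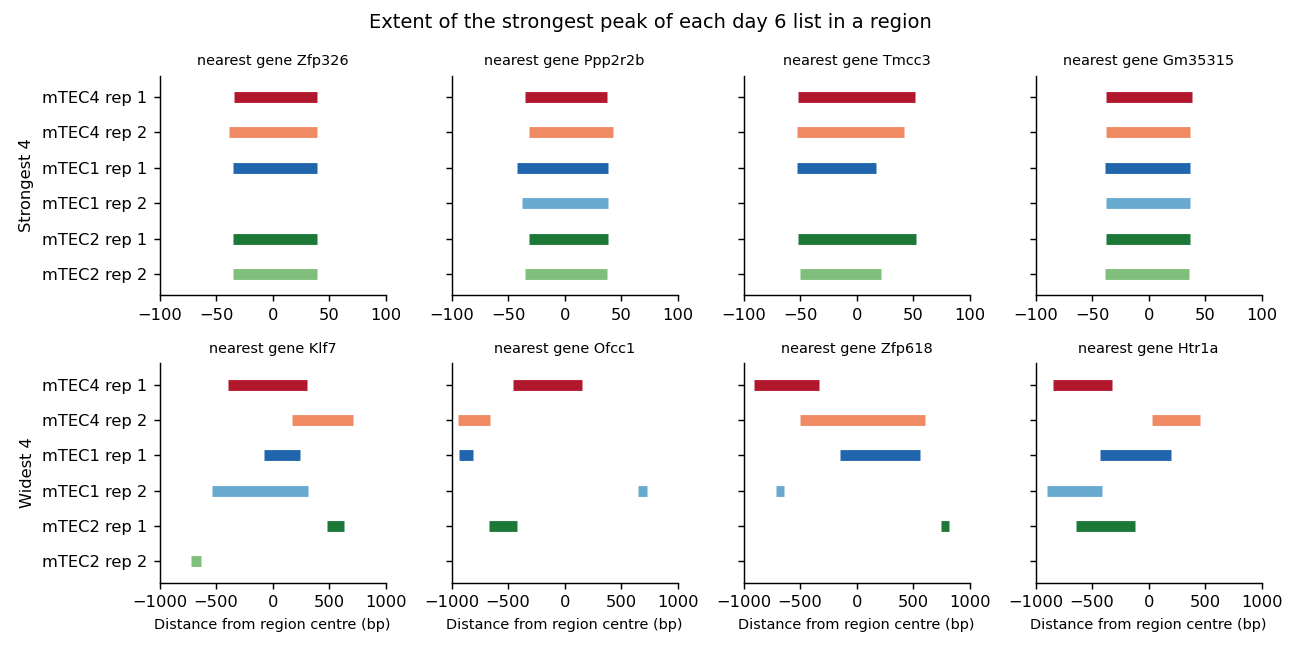
Extent of the strongest peak of each day 6 list, in bp from the centre of the region, for the 4 strongest members (top) and the 4 widest (bottom, on a longer axis), with a bar per library and no bar where no peak was called. The bars nearly coincide in the strongest regions and lie apart in the widest, such as that by Ofcc1, where at most 2 lists meet.

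Below these few, members were wider. The median width was 335 bp between the 50th and the 90th percentile and 628 bp below the 50th. Over all members the median width of a merged region was 454 bp (range 78 to 1956 bp, quartiles 290 and 788 bp), while the median peak within them was 192 bp wide. Shared regions had a median of 713 bp, which includes embryonic peaks, and of 445 bp from their day 6 peaks alone. Members wider than 1000 bp numbered 144 (14.4%, against 8.06% of shared regions by day 6 peaks alone and 25.7% with embryonic peaks), and those under 100 bp 11 (1.1% against 0.52% by day 6 peaks alone). Merging chains peaks that touch, so a region can be counted in 5 lists without 5 lists sharing a base. With peaks of −log10 q of at least 2 alone, the median width was 226 bp. In 540 members (53.8% against 92.1% of shared regions, by day 6 peaks alone) some base was covered by every day 6 list that called the region, and these had a median width of 330 bp. In 141 (14.1% against 0.803%, by day 6 peaks alone) no base was covered by more than 3 lists. Those 141 had a median width of 945 bp, a median −log10 q of 1.58 and a median percentile of 35.7.

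The widest was chr1:64313675-64315630, 1956 bp wide, whose nearest gene, the transcription factor gene Klf7, was 191330 bp away, and which was called in all 6 lists. Its −log10 q was 2.24 and 1.63 in mTEC4, 1.81 and 1.1 in mTEC1 and 1.68 and 1.18 in mTEC2, and at most 4 lists met over a base. The next was 1883 bp wide, 321077 bp from Ofcc1, and at most 2 lists met there. It was followed by one of 1816 bp inside Zfp618 with 3 lists and one of 1800 bp, 526554 bp from Htr1a, with 4. Of the other 6 of the 10 widest, 1 was inside Sun1 and 5 had Lrrc4c (1320859 bp away), Sec23a, Aard, Zscan4f and Olfr1340 as nearest genes. At Klf7 all 6 values were 2.24 or lower, so no list contributed a strong peak.

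Members were spread over the genome with little clustering. Another member lay within 10 kb of 14 (1.4%), against 24.7% of shared regions having another shared region that near, and within 100 kb of 88 (8.77% against 83.3%). The 14 formed 7 pairs, near Glul, Cand1, Speer2, Eif4e3, Galnt7, Olfr1323 and Cnksr2. The closest was on chromosome X by Olfr1323, where the gap was 61 bp, and the next was 1101 bp by Cnksr2. Shared regions are far more numerous, 14820, so their nearness to each other is not on the same footing. Leaving out mTEC4 replicate 1 gave a larger set with 2.4% having a neighbour within 10 kb. The share was 2.14% without mTEC4 replicate 2, 2.16% without mTEC1 replicate 2, 2.63% without mTEC2 replicate 1 and 4.13% without mTEC2 replicate 2.

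The nearest embryonic region lay a median of 7069 bp away, against 3464 bp from a shared region to the nearest embryonic region other than itself. Within 1 kb of an embryonic region were 97 members (9.67% against 25.5%), within 10 kb 605 (60.3% against 84.6%), and 27 (2.69% against 0.175%) had none within 100 kb. The median number of embryonic regions within 50 kb was 5 for members and 11 for shared regions. Regions called in exactly 4 day 6 lists and no embryonic list had 56.1% within 10 kb and a median of 5 within 50 kb. Most members thus had an embryonic region within 10 kb, without an overlap. Such a region needed a peak in only 1 embryonic list, and the share for sites drawn at random was not counted. The nearness is therefore not read as a trait of the members.

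Sex chromosomes held a larger share of members than of shared regions. On X were 64 (6.38% against 2.67%), which is 13.9% of the 459 day 6 regions there, and on Y 7 (0.698% against 0.196%), 7 of 36 (19.4%). Regions called in exactly 4 day 6 lists and no embryonic list had 7.18% on X and 0.802% on Y. The larger share was thus not particular to the members. On the autosomes the share of day 6 regions without an embryonic call ran from 2.91% on chromosome 9 (24 members) to 9.5% on chromosome 18 (44). The X members had a median width of 618 bp, a median −log10 q of 1.67 and a percentile of 41.8. The sex of the animals is not in the labels, and the part of sex in these counts was not tested. When only peaks at −log10 q 2 or above were counted, 95 regions met the rule and X held 3.16% of them, and with every list cut by strength to the length of the shortest 599 met it and X held 4.01%. Regions called in all 4 embryonic lists and no day 6 list had 0 on Y. The Y member by Eif2s3y, a translation factor gene, spans 988558 to 989384. The 6 others were near Gm20865, Gm21745 (2 regions), Gm21191, Gm21317 and Gm52481. One of the Gm21745 regions was 123 bp wide, was called in all 6 lists and reached a −log10 q of 10.2.

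**Figure D5:**
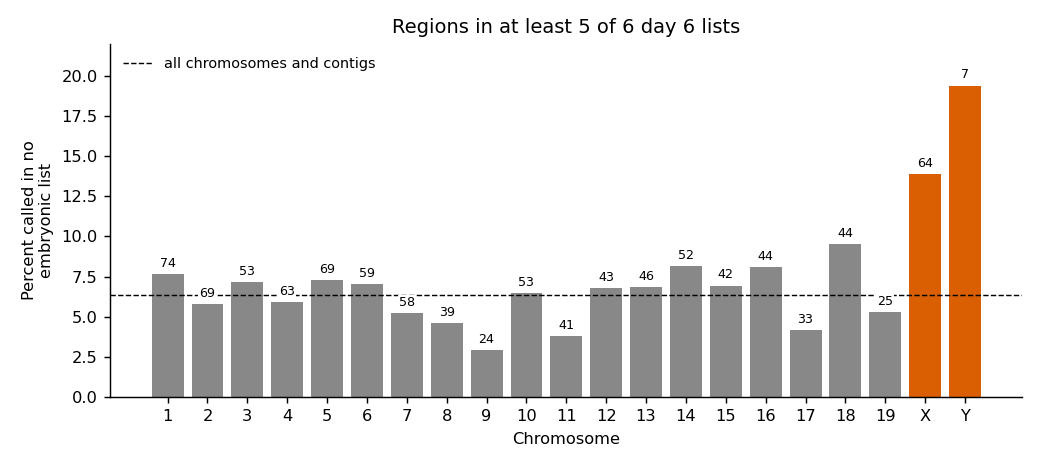
Share of day 6 regions (called in at least 5 lists) that had no embryonic call, in percent, by chromosome, with the number of members above each bar and a dashed line at the share over all chromosomes and contigs, 6.34%. Chromosome Y (19.4%) and chromosome X (13.9%) stand above the autosomes, whose highest is 9.5%.

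The thresholds decided many memberships. All 6 day 6 lists held 155 members, 1.53% of the 10139 regions called in all 6. With 1 list fewer than the rule asked, 2993 regions were called in exactly 4 day 6 and no embryonic list, with a median width of 444 bp, a percentile of 42.2 and a −log10 q of 1.7. The members called in exactly 5 had a median width of 473 bp, 45.4 and 1.78. With 1 embryonic call in place of 0 there were 315 regions, with a median width of 428 bp, 53.8 and 1.99. Leaving out 1 day 6 library, and asking for 4 of the remaining 5, gave 1257 (without mTEC1 replicate 1), 1586 (mTEC4 replicate 1), 1682 (mTEC4 replicate 2), 1974 (mTEC2 replicate 1), 2034 (mTEC1 replicate 2) and 3223 (mTEC2 replicate 2) regions, larger by construction. The share at gene boundaries was lowest without mTEC2 replicate 1, at 1.42%. Of the 1003 members, 170 overlapped the 599 regions that met the rule with lists of equal length.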

How the data were processed

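ATAC-seq peak lists of 10 libraries were used, 1 list per library with no pooling. The tools named per the submitters' processing notes are MACS2, Picard, Bowtie2 and cutadapt, and the build is mm10, without versions or order. Any shift of read ends for the transposase is not stated there. The score of each deposited peak equals 10 times its −log10 q with decimals dropped and was not used, nor was the −log10 p. The −log10 q values deposited by the authors come from their peak caller, with a minimum of 1.0002. The fold enrichment deposited by the authors is a ratio to the caller's background in that library. Both describe or rank peaks within a list only. No read counts were used, so depth is unknown and no interval is given for a locus.

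Peaks were merged with Python 3.11.15, pandas 2.3.3 and numpy 2.4.6 where they overlapped or touched. The merging was tested on simulated peaks. Gene positions came from a RefSeq table (GRCm38.p6, 21896 protein-coding genes) and promoter windows from RefSeq. Named regions were the 10 strongest by percentile, the 10 widest, pairs within 10 kb, up to 15 at gene boundaries, and those nearest to listed genes, with exceptions marked as chosen after their values were seen. Members, gene lists and naming rule were chosen with earlier results of these data known. Nothing was tested, since the calls chose the members. Alternatives were other merging gaps, overlaps, thresholds and list lengths, and leaving out each library. The repeat and base composition of the regions was not analysed here.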

Additional observations from a re-analysis of the deposited data

Results flagged for a closer look

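Of the 1003 members, mTEC2 replicate 2 called 562, far below the other 5 day 6 libraries, which called 885 to 974. The selection rule used these calls, so the count is a description and supports nothing on its own. The list of this library was also the shortest, with 40858 peaks, and the part of list length in the low count was not tested. Chance alone marks some groups of libraries in this way.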

How the results depend on the processing

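No paired analysis was possible because the results come from no test. Apart from settings that leave out a library, 44 of 73 values stayed within their interval or within 1.5 times the count, and 29 moved. The interval is a 95% interval that treats the 1003 members as separate draws. It does not measure the spread over libraries or animals, and most settings reuse many of the same regions. These counts are therefore a description. The count of 1003 became 95 with peaks of −log10 q of at least 2, 24 at 5 or more, 599 with lists of equal length, 155 in all 6 lists, 3996 in at least 4, and 578 where a base was covered by at least 5 lists (chosen after seeing the data). The median width of 454 bp became 497 with peaks merged within 100 bp, 226 and 133 at −log10 q of 2 and 5, 322 with equal lists, 388 in all 6 lists and 337 with a shared base. The boundary share of 2.19% became 4.17% at 5, 13.4% with equal lists and 8.67% within 5 kb. The share inside genes, 32.7%, became 42.1% at 2 and 25% at 5. On X, 6.38% became 3.16% at 2, 4.17% at 5, 4.01% with equal lists and 4.52% in all 6 lists. On Y, 0.698% became 4.17% at 5 and 0.334% with equal lists. At 5 the set held only 24 regions. The shares of 4.17% there stand for the region at Mospd3 (boundary), that near Nyx (X) and that near Gm21745 (Y). The share with a neighbour within 10 kb, 1.4%, became 0% at 2, at 5 and in all 6 lists, 4.83% in at least 4 lists, 0.346% with a shared base, and 8.77% within 100 kb. The cause of these moves was not tested.

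Leaving out 1 library at a time gave 1062 to 3223 regions, a median width of 363 to 476 bp, 1.42% to 3.22% at boundaries, 29.6% to 35.2% inside genes, 5.89% to 7.72% on X, 0.535% to 0.946% on Y and 1.27% to 4.13% with a neighbour within 10 kb. Of these 70 values 57 stayed within the same limits. At −log10 q of at least 2, 86 of the 1003 members (8.57%) overlapped the 95 regions. With equal lists 170 members (16.9%) did, and of the 429 regions there that were not members 76 (17.7%) lay at gene boundaries. Of the 14 members over promoter windows, 2 were kept at −log10 q of at least 2, 0 at 5, 2 with equal lists and 2 in all 6 lists. Those kept were at AI467606, Gm40491, E130215H24Rik and Gm39792. Depth is unknown, so a site without a call may be open below the caller's limit.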
